A study of Mus musculus with 16 samples.

Results

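Voltage-gated calcium channels were described in the hippocampus of 16 mice through 10 listed genes, 8 for pore-forming subunits (Cacna1a, Cacna1b, Cacna1c, Cacna1d, Cacna1e, Cacna1g, Cacna1h and Cacna1i) and 2 for auxiliary beta subunits (Cacnb3 and Cacnb4). A gene was measured by every probe set, a group of short probes for 1 transcript region, whose only gene symbol in the platform annotation was a listed one. That gave 20 probe sets for 8 of the 10 genes, out of 45037 probe sets in all. No probe set was listed for Cacna1i or Cacnb3 in the annotation used here, and both are without a value. Of the 20 probe sets, 18 had a mean above 3.58 log2 units, the 40th percentile of all probe sets, which served as the floor for low values. The other two, 1 of 4 for Cacna1a and 1 of 2 for Cacna1h, lay at 2.69 and 2.58 and are not read further.

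Total RNA was measured on 1 Affymetrix array per animal, in 8 animals on a control diet and 8 on a diet with pioglitazone (PIO), a thiazolidinedione drug that activates the nuclear receptor PPAR gamma. All animals were female 3xTg-AD mice, 14 months old per the labels, so controls and treated animals alike carried the mutant human APP and tau transgenes and the presenilin mutation of this Alzheimer's disease model. The diets were begun at 10 months and lasted for about 14 weeks, and the drug made up 84 ppm of the PIO diet, roughly 18 mg/kg/day. All 16 animals carried the transgenes, so the differences are within that model alone. All 10 marker genes fixed for hippocampal neurons were above the floor. So were 9 of 10 for thalamus and habenula, 9 of 10 for choroid plexus and 7 of 10 for striatum. Passing the floor thus does not tell regions apart.

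These channels open when the membrane is depolarized and let calcium into the neuron. The pore-forming subunit sets the type of current. L-type channels (Cacna1c, Cacna1d) couple activity to gene expression and to the slow afterhyperpolarization of hippocampal neurons, P/Q-type (Cacna1a) and N-type (Cacna1b) channels trigger transmitter release, R-type channels (Cacna1e) serve dendrites and terminals, and T-type channels (Cacna1g, Cacna1h, Cacna1i) open near rest and support burst firing. Beta subunits bind the pore-forming subunits of all but the T-type channels, bring them to the membrane and alter their gating.

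No calcium channel gene passed the test between diets. In limma's test of 12266 genes, each represented by the probe set with the highest mean, 0 of the 8 measured members had an adjusted p under 0.05, where 0% of all genes did. Before adjustment, Cacna1a and Cacna1h were the 2 members with p under 0.05, both lower with PIO, where 7% of all genes met that mark in either direction and 3.15% met it as lower. Of the 8 members 4 were lower and 4 higher, where 47.3% of all genes were lower. The median log2 difference (PIO minus control) was 0.0012 over the members and 0.0045 over all genes, and the median absolute difference was 0.043 and 0.050. The smallest adjusted p among the members was 0.681. With 8 arrays a group the precision is limited by their number, and in whole hippocampus fewer cells of a type and less RNA per cell cannot be told apart.

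**Figure D1:**
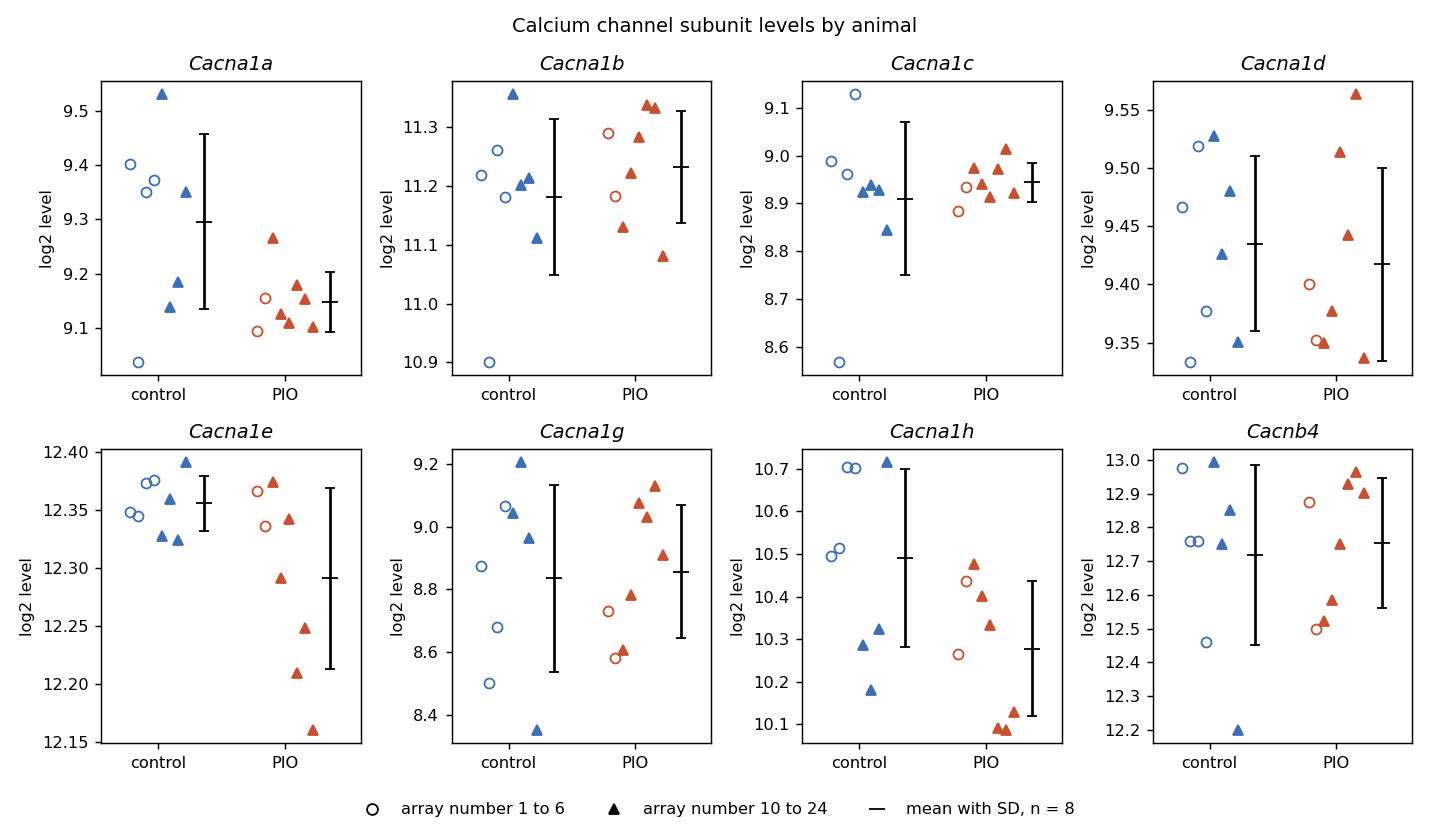
Log2 level of the probe set that stands for each of the 8 measured genes, 1 point per animal, with the group mean and SD (n = 8) to the right of each group. Open circles are arrays numbered 1 to 6 and filled triangles arrays numbered 10 to 24; the vertical axes differ between panels and do not start at 0. The groups overlap in every panel, and for Cacna1h the 3 lowest animals are all from the PIO group.

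Among the presynaptic channels, Cacna1a, the P/Q-type pore, had the smallest p of all members. Its values ran from 9.04 through a median of 9.35 to 9.53 log2 units in controls, and from 9.09 through 9.14 to 9.27 with PIO. All 8 PIO animals were below the control median, yet none was below the lowest control, animal 2, so the groups overlapped. The means were 9.30 ± 0.16 and 9.15 ± 0.056 (SD, n = 8 each), a log2 difference of -0.15 (SE 0.060, 95% interval -0.27 to -0.021) with an adjusted p of 0.681 by limma. The unadjusted p was 0.0249, and an exact two-sided permutation of the 8 against 8 animals gave 0.0278. The other probe sets above the floor differed by -0.030 (SE 0.12) and -0.069 (SE 0.077), in the same direction and each by less than its SE. These 3 probe sets did not follow each other over animals, with Pearson r between -0.08 and 0.35 once the diet means were removed. The difference was -0.17 within the arrays numbered 1 to 6 (4 control, 2 PIO) and -0.15 within those numbered 10 to 24 (4 control, 6 PIO). Within each range every control array had a lower number than every PIO array. Diet and array number therefore cannot be told apart within the ranges.

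Cacna1b, the N-type pore, was measured by 4 probe sets above the floor. The one that stands for the gene ran from 10.90 through a median of 11.21 to 11.36 in controls and from 11.08 through 11.25 to 11.34 with PIO. The PIO range lay inside the control range. The log2 difference was 0.052 (SE 0.058, 95% interval -0.070 to 0.17; limma adjusted p = 0.879). The other Cacna1b probe sets differed by 0.0060, -0.045 and 0.12, so their directions were not the same, and none had an unadjusted p under 0.05.

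Cacna1e, the R-type pore, varied less between animals than any other measured member, with an SD of 0.058 log2 units after the diet means were removed. Its values ran from 12.32 through 12.35 to 12.39 in controls and from 12.16 through 12.31 to 12.37 with PIO. Most of the spread was in the PIO group, where 4 of 8 animals were below the lowest control and animals 14, 15 and 16 were the lowest at 12.21, 12.25 and 12.16. The log2 difference was -0.065 (SE 0.035, 95% interval -0.14 to 0.0089, limma adjusted p = 0.745). The unadjusted p by limma was 0.081 in the gene fit and 0.0439 in the fit of every probe set. The exact permutation p was 0.0406. Leaving out PIO animals 14 to 16, which was decided with their values in view, gave -0.014 (SE 0.031). The second probe set differed by 0.083 (SE 0.14), the other way, and did not follow the first over animals (Pearson r = -0.06, Spearman rho = 0.08, permutation p = 0.83 and 0.767, n = 16 arrays). Thalamic markers were highest in the same animals 16 and 14, with a mean log2 level of 9.16 and 8.17 against 7.75 to 8.04 in the others. Of the thalamus and habenula list 9 of 10 genes were above the floor (Tnnt1 was not) and all 9 were higher with PIO, and the log2 of their summed level ran from 12.18 to 12.55 in controls and 12.10 to 13.24 with PIO. With the mean of these markers as a covariate the Cacna1e difference was -0.028 (SE 0.031), against -0.065 without it. It was also smaller with striatal markers, at -0.036 (SE 0.035), and with hippocampal neuron markers, at -0.037 (SE 0.032). The last setting was added after the values were seen. With oligodendrocyte and choroid plexus markers it was -0.061 (SE 0.042) and -0.060 (SE 0.037).

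The L-type pores showed no difference that passed the test. Cacna1c ran from 8.57 through 8.93 to 9.13 in controls and from 8.89 through 8.94 to 9.01 with PIO, so the PIO animals lay inside the control range. Its log2 difference was 0.034 (SE 0.058, 95% interval -0.089 to 0.16), and the second probe set differed by -0.035 (SE 0.059). Cacna1d ran from 9.33 through 9.45 to 9.53 in controls and from 9.34 through 9.39 to 9.56 with PIO, and the groups overlapped over nearly the whole range. The difference was -0.018 (SE 0.043, 95% interval -0.11 to 0.073), and -0.069 (SE 0.13) at the second probe set. Adjusted p by limma was 0.924 for Cacna1c and 0.953 for Cacna1d. A p that misses the threshold does not show that the diets gave the same level.

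Of the T-type pores, Cacna1h had the larger difference. This subunit, which is found in dentate granule cells, ran from 10.18 through 10.50 to 10.72 in controls and from 10.09 through 10.30 to 10.48 with PIO. All 8 PIO animals were below the control median and 3 were below the lowest control, but control animals 5, 6 and 7, at 10.29, 10.18 and 10.32, lay within the PIO range. The means were 10.49 ± 0.21 and 10.28 ± 0.16 (SD, n = 8 each), a log2 difference of -0.21 (SE 0.089, 95% interval -0.40 to -0.025), or 0.863 of the control level. The unadjusted p was 0.0287, the exact permutation p 0.0413 and the adjusted p 0.681 by limma. The difference was -0.25 in arrays 1 to 6 and -0.12 in arrays 10 to 24. In the latter the control mean was 10.38 ± 0.23 (SD, n = 4) and the PIO mean 10.25 ± 0.17 (SD, n = 6). Here too diet and array number cannot be told apart within the ranges. Without PIO animals 14 to 16 the Cacna1h difference was -0.11 (SE 0.094).

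Markers of hippocampal neurons moved with Cacna1h. Of the 10 listed, 8 were lower with PIO, where 47.3% of all genes were. So were all 6 astrocyte, all 6 microglial and all 5 oligodendrocyte markers above the floor. Interneuron markers were 3 lower and 4 higher, and all 9 choroid plexus markers above the floor were higher. The log2 of the summed level of the hippocampal neuron markers ran from 15.42 to 15.54 in controls. It ran from 15.27 to 15.70 with PIO, with no marker of that list below the floor. Their mean was lowest in PIO animals 15, 14 and 16 and control animal 5, at 10.64, 10.70, 10.96 and 10.92, against 11.03 to 11.26 in the other animals. The difference for Cacna1h was -0.10 (SE 0.061) with the mean of these markers as a covariate, a setting added after the values were seen, against -0.21 without it. Striatal markers differed between diets in the other direction: 7 of 10 were above the floor and all 7 were higher with PIO. Their mean was highest in PIO animals 15 and 14, at 9.90 and 9.71, against 8.24 to 9.16 in the other animals. With diet means removed, that mean and Cacna1h had r = -0.59 and rho = -0.62 (adjusted permutation p = 0.0546 and 0.0301 over 64 pairs of a member and a marker list). In arrays 1 to 6 r was -0.021. The log2 of their summed level ran from 12.02 to 12.68 in controls and from 12.28 to 13.51 with PIO. The Cacna1h difference was -0.12 (SE 0.083) with the striatal markers as a covariate, -0.15 (SE 0.093) with the thalamic ones, -0.15 (SE 0.10) with those of oligodendrocytes and -0.22 (SE 0.094) with those of the choroid plexus.

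Cacna1g, the T-type subunit of thalamic relay neurons, had 1 probe set. It ran from 8.35 through 8.92 to 9.21 in controls and from 8.58 through 8.85 to 9.13 with PIO, and the PIO range lay inside the control range. Its SD between animals, 0.26 log2 units with the diet means removed, was the largest of the members. The log2 difference was 0.020 (SE 0.12, 95% interval -0.24 to 0.28; limma adjusted p = 0.983), so a change of the size seen for Cacna1h would lie within its interval. Over animals, with diet means removed, Cacna1g and the mean of the thalamic markers had r = 0.19 and rho = 0.33. Neither passed (adjusted permutation p = 0.632 and 0.268 over 64 pairs of a member and a marker list).

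Cacnb4, a beta subunit whose loss causes the lethargic mouse, was measured by 3 probe sets. The representative one ran from 12.20 through 12.76 to 12.99 in controls and from 12.50 through 12.81 to 12.96 with PIO. Control animal 8 was the lowest of all 16 and the PIO range lay inside the control range. The log2 difference was 0.035 (SE 0.11, 95% interval -0.20 to 0.27; limma adjusted p = 0.966). The other probe sets differed by -0.060 (SE 0.088) and -0.081 (SE 0.11), in the opposite direction.

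**Figure D2:**
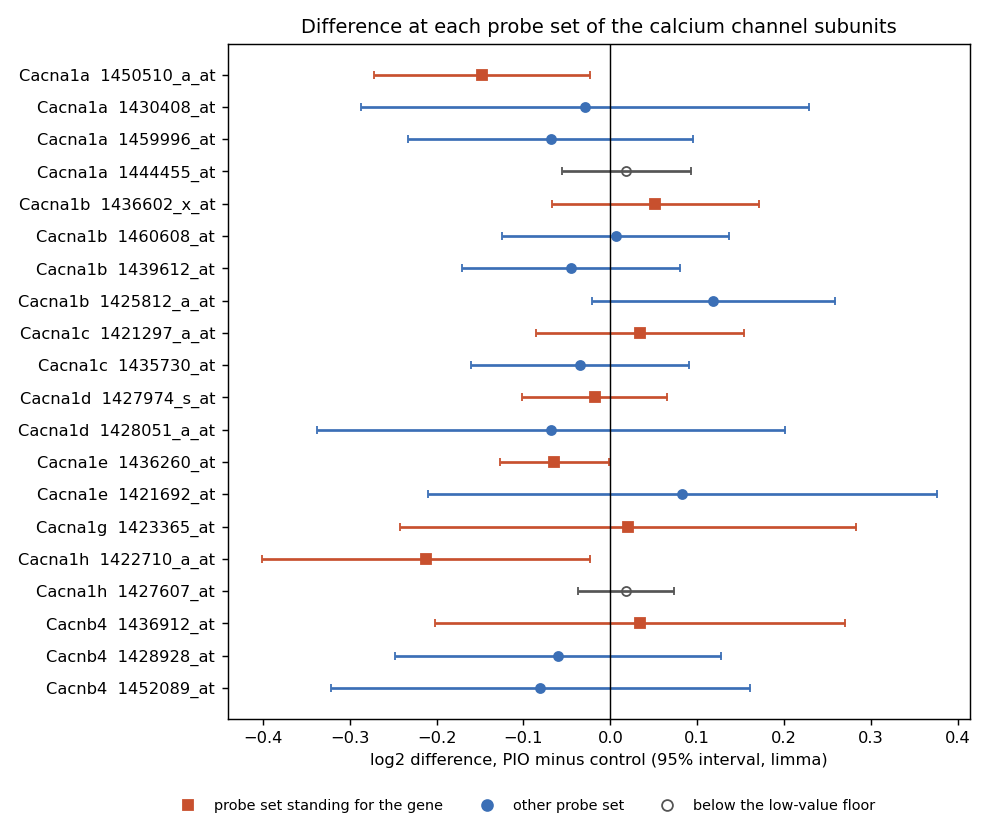
Log2 difference (PIO minus control) with its 95% interval from limma for all 20 probe sets, fitted over 45037 probe sets with 16 arrays. Squares stand for the gene, filled circles are further probe sets and open circles the 2 below the floor; the intervals of 3 probe sets, for Cacna1a, Cacna1e and Cacna1h, leave out 0 before adjustment.

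Over the 18 probe sets above the floor, differences ran from -0.21 to 0.12, with 11 lower and 7 higher. In the fit of every probe set 3 of them had an unadjusted p under 0.05, where 5.26% of all probe sets and 8.17% of those above the floor with 1 gene did, and 0 an adjusted one, where 0% did. The smallest adjusted p was 0.922. Cacna1a and Cacna1d were the 2 genes with several probe sets above the floor that all had the same direction.

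Probe sets of the same gene followed each other over animals only in part. Of 15 pairs above the floor, 3 passed a permutation test of Pearson r after Benjamini-Hochberg adjustment over the pairs. They were 1 pair of Cacnb4 (r = 0.85, rho = 0.74, adjusted permutation p = 0.0015 and 0.0238) and 2 pairs of Cacna1b (r = 0.78 and 0.68, rho = 0.72 and 0.71, adjusted permutation p = 0.00262 and 0.0171 for r, 0.0238 and 0.0268 for rho). Without the 2 arrays farthest from the median these r were 0.73, 0.71 and 0.59. Within arrays 1 to 6 they were 0.79, 0.74 and 0.61, and within arrays 10 to 24 they were 0.88, 0.82 and 0.83. The probe sets share the RNA and the array. Probe sets of Cacna1c (r = 0.54), Cacna1d (r = 0.31), Cacna1a and Cacna1e did not pass, so agreement between probe sets was not shown for these 4 genes.

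A few pairs of members varied together, or in opposite directions, across animals of the same diet. Of 28 pairs of members, 3 passed the permutation test of r after adjustment over the pairs. Cacna1b and Cacna1d rose and fell together (r = 0.81, rho = 0.88, adjusted permutation p = 0.00112 and 8.4e-04, n = 16 arrays). Control animal 2 was the lowest in both, and control animal 5 and PIO animal 15 were among the 3 highest in both. Cacna1h and Cacnb4 ran in opposite directions (r = -0.75, rho = -0.74, adjusted permutation p = 0.0206 and 0.0267). Cacna1e followed Cacna1h (r = 0.63, rho = 0.61, adjusted permutation p = 0.0206 and 0.0311). An r of at least this size, in either direction, was seen in 4 of the 28 pairs and in 4.66% of all pairs of tested genes. The size was set by the weakest of the 3 pairs that passed, so these 3 reach it by construction. The shares were not tested against each other.

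**Figure D3:**
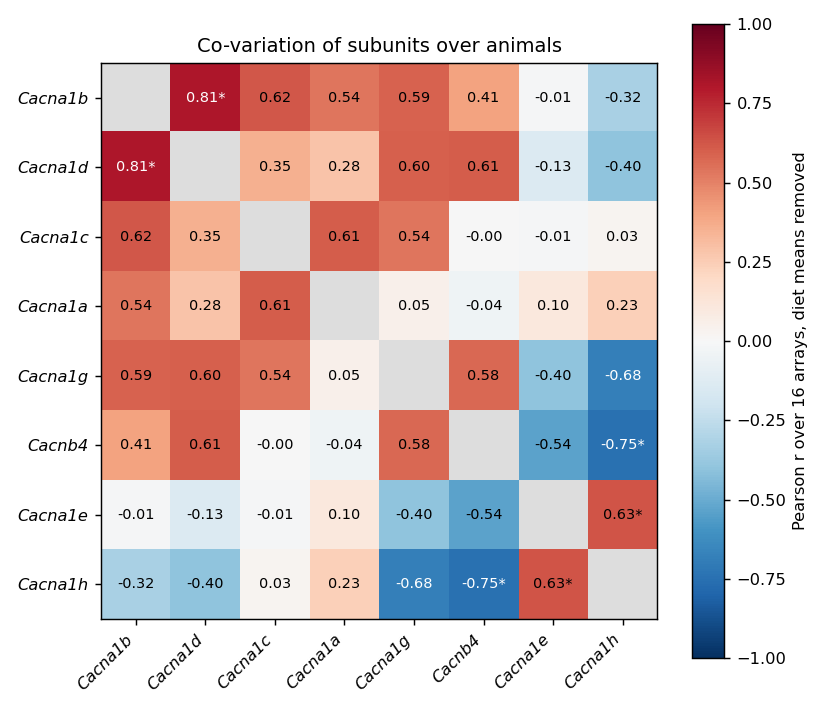
Pearson r between the 8 measured genes over 16 arrays with each diet's mean removed, 1 probe set per gene. Asterisks mark the 3 pairs that passed after adjustment over 28 pairs; Cacna1b with Cacna1d (0.81) and Cacna1h with Cacnb4 (-0.75) stand at either end.

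Without the 2 arrays farthest from the median r was 0.82 for Cacna1b with Cacna1d, -0.80 for Cacna1h with Cacnb4 and 0.60 for Cacna1e with Cacna1h. In arrays 1 to 6 and 10 to 24 taken apart, still minus the diet means of all 16 arrays, r was 0.78 and 0.85 for the first pair. It was -0.73 and -0.86 for the second. For Cacna1e with Cacna1h it was 0.0035 in arrays 1 to 6 (n = 6) and 0.65 in arrays 10 to 24 (n = 10). This relation was thus seen in the second range alone. Cacna1e ran only from 12.34 to 12.38 in arrays 1 to 6, so r there cannot show that the relation was absent. Without PIO animals 14 to 16 the first pair alone passed (r = 0.81, adjusted permutation p = 2.8e-04), and r was -0.67 and 0.47 for the others (adjusted permutation p = 0.242 and 0.28). The Cacna1b and Cacna1d probe sets of this pair both carry a name that marks sequence shared with other transcripts (_x_at and _s_at). Without such probe sets the genes were represented by others, whose r was 0.32 (rho = 0.29, adjusted permutation p = 0.279 over 13 pairs), and the diet differences were 0.0060 for Cacna1b and -0.069 for Cacna1d. The r of the representative Cacna1d probe set with the other Cacna1b probe sets was 0.72, 0.58 and 0.42. The second Cacna1d probe set gave r between 0.19 and 0.51 with the 4 of Cacna1b. Cacna1h gave r of -0.70 and -0.45 with the other Cacnb4 probe sets, and -0.07 with the second one of Cacna1e.

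**Figure D4:**
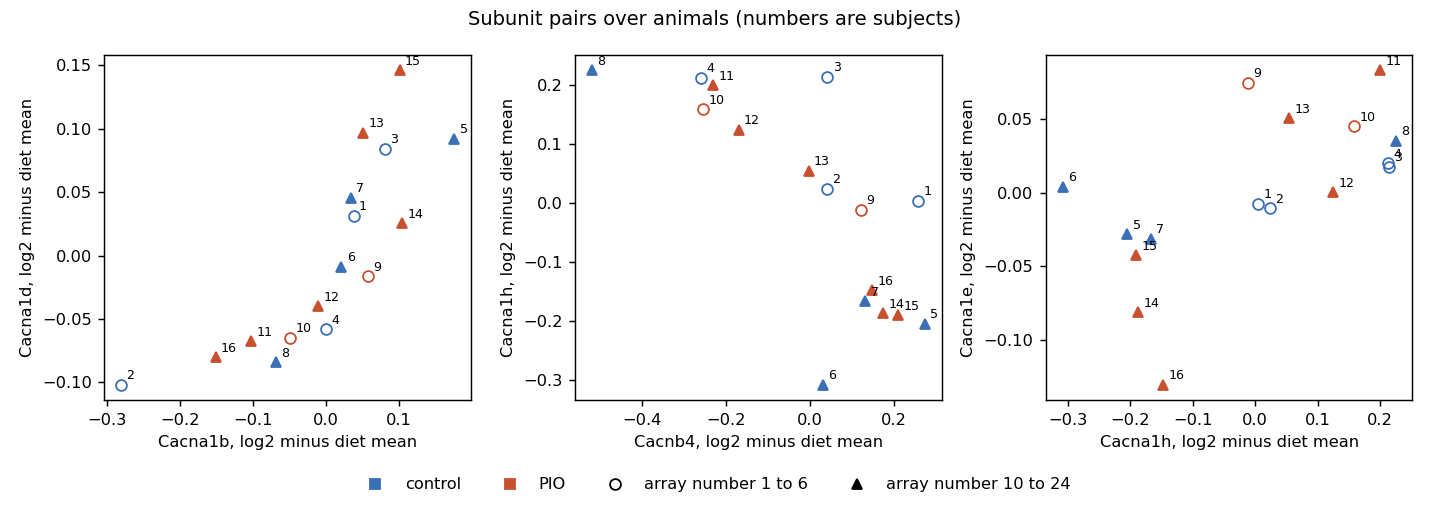
Log2 levels of the 3 pairs that passed, each minus its diet mean, 1 point per animal with its subject number. Control animal 2 is lowest for both Cacna1b and Cacna1d, and control animal 8 is lowest for Cacnb4 and highest for Cacna1h.

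The promoters of Cacna1b and Cacna1d are shown because these genes varied together most closely. Both windows hold 250 bases before and 50 after a transcript start in RefSeq (GRCm38.p6), at chr2:24763103-24763402 and chr14:30353437-30353736, both on the minus strand, written 5′ to 3′ with GC boxes (GGGCGG, on either strand) in capitals.
Cacna1b: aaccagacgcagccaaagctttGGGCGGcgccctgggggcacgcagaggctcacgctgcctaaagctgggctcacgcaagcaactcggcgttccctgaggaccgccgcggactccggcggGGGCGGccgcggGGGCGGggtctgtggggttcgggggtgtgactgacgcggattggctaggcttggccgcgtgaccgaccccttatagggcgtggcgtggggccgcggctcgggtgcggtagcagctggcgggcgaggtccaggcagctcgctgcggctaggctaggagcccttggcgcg
Cacna1d: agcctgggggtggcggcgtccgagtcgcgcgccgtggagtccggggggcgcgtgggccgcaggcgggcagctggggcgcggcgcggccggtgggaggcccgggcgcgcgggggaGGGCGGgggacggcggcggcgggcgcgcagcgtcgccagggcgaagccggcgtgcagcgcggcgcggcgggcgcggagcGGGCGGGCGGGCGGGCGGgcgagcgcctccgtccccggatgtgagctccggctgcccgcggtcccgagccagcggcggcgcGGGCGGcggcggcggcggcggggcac
The windows were 72.3% and 87.3% G or C, against a median of 52.7% over 32851 windows of the same length, and held 3 and 6 GC boxes, which may overlap. A GC box was found in 35.7% of all windows and in 6 of the 13 windows of listed members, which covered 7 of the 10 genes. A second Cacna1d start had a window of 40.3% G or C and no GC box. It held 3 matches to TATAAA on either strand, some of which overlap, a motif in 13.6% of all windows. The direct repeat that PPAR and its partner RXR bind was in 0 of the 13 windows and in 0.0396% of all, and the single hexamer AGGTCA in 0 of the 13 and 16.3% of all, both searched on either strand, which says only that these letters are not in these windows.

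Some members varied with markers of cell types. Of 64 pairs of a member and a marker list mean, 10 passed the permutation test after adjustment over the pairs, with diet means removed. None of the 10 was for Cacna1a, Cacna1b or Cacna1c. An r as large as the smallest of the 10 was reached by 11 of the 64 pairs, from 5 of 8 members. It was reached by 4.89% of all pairs of a gene and a list, from 22.4% of all genes. The 10 pairs reach that size by construction, and these shares were not tested against each other. Cacna1h rose with the hippocampal neuron markers (r = 0.81, rho = 0.82, adjusted permutation p = 6.4e-04 and 0.00192), and Cacnb4 ran against them (r = -0.68, rho = -0.78, adjusted permutation p = 0.0165 and 0.00768). Cacna1g ran against the astrocyte markers (r = -0.84, rho = -0.86, adjusted permutation p = 0.0016 and 0.00224) and with the interneuron markers (r = 0.80, rho = 0.73, adjusted permutation p = 0.00896 and 0.0168).

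**Figure D5:**
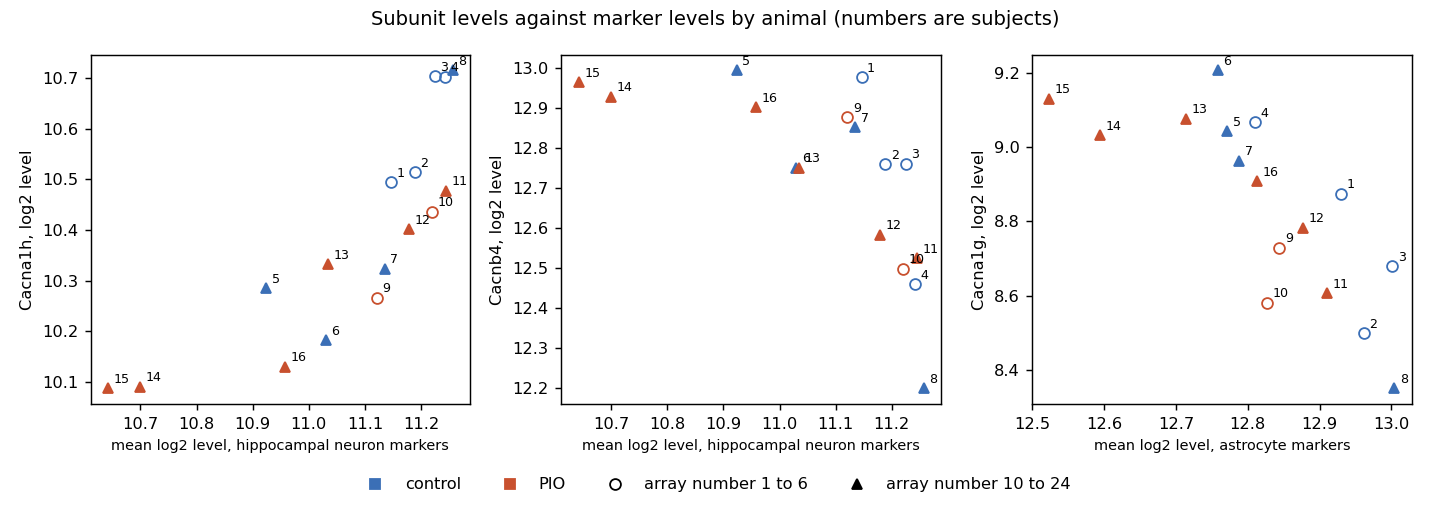
Log2 level of Cacna1h, Cacnb4 and Cacna1g against the mean log2 level of a marker list, 1 point per animal with its subject number. Colours give the diet and symbols the range of array numbers; PIO animals 14 and 15 have the lowest markers in each panel, and control animal 8 is at the other end.

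The same r without the 2 arrays farthest from the median of the channel gene were 0.81, -0.76, -0.86 and 0.74 in that order. In arrays 1 to 6 they were 0.45, -0.76, -0.79 and 0.54, and in arrays 10 to 24 they were 0.81, -0.77, -0.84 and 0.84. Without PIO animals 14 to 16 they were 0.84, -0.69, -0.88 and 0.81, and Cacnb4 with hippocampal neurons no longer passed (adjusted permutation p = 0.157). Of the other 6 pairs that passed, Cacna1h ran against interneuron markers and with astrocyte and microglial ones (r = -0.74, 0.73 and 0.70), Cacna1g against hippocampal neurons (r = -0.67), Cacna1d against oligodendrocytes (r = -0.74) and Cacna1e against thalamus (r = -0.77). Their adjusted permutation p for r ran from 0.0165 to 0.0395, and rho of Cacna1e with thalamus did not pass (-0.64, adjusted permutation p = 0.0529). By rho, though not by r, Cacna1e passed with striatum (-0.75, adjusted permutation p = 0.0125) and with hippocampal neurons (0.78, adjusted permutation p = 0.02). Within arrays 1 to 6 Cacna1h with astrocytes had r = -0.30 (n = 6) against 0.83 in arrays 10 to 24 (n = 10). That relation was thus seen in the second range alone, and 6 arrays are too few to show that it was absent in the first. None of these 6 pairs passed once the means of the array number ranges were removed (adjusted permutation p between 0.0534 and 0.126). Without PIO animals 14 to 16 Cacna1h with interneurons was the one of the 6 that passed (adjusted permutation p = 0.0107), and Cacna1e with thalamus fell to r = -0.31 (adjusted permutation p = 0.602). For the other 5 pairs r kept its sign, at -0.55, 0.52, -0.26, -0.72 and -0.77 in arrays 1 to 6 and -0.73, 0.72, -0.70, -0.74 and -0.76 in arrays 10 to 24, in the order interneurons, microglia, hippocampal neurons, oligodendrocytes and thalamus.

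The genes whose pattern was most like a member's are given for the 3 members with the largest SD, as a description over 16 arrays and picked as the highest r of 12266 genes. Cacna1h was closest to Neurod2, a transcription factor of excitatory neurons, Doc2b, a calcium sensor of vesicle release, and Arpc2 of the actin-branching complex (r = 0.93, 0.93 and 0.90; rho = 0.87, 0.94 and 0.91). Diet means were removed, so r does not bear on the diet difference. That difference was -0.0061, 0.0017 and -0.052 log2 units for these genes, beside -0.21 for Cacna1h. Cacna1g was closest to Lrrc3b, Sowahb and Gm12371 (r = 0.94, 0.93 and 0.92; rho = 0.91, 0.88 and 0.88). Cacnb4 was closest to Tm6sf1, Etl4 and the synaptic adhesion gene Lrrtm2 (r = 0.93, 0.92 and 0.91; rho = 0.84, 0.87 and 0.88).

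Other channel genes did not pass either, where 0% of all genes did. Of 16 further subunits, 12 were above the floor. With PIO 6 of them were higher and 6 lower, the median being -7.2e-04 log2 units, and 0 had an unadjusted p under 0.05. Of all genes 47.3% were lower and 7% had such a p. Cacng4, a gamma subunit that also escorts AMPA receptors, ran from 7.62 through 7.91 to 7.96 in controls and from 7.62 through 8.06 to 8.52 with PIO, and 4 of 8 PIO animals lay above the highest control. Its log2 difference was 0.24 (SE 0.12), beside 0.38 (SE 0.19) for the gamma subunit Cacng5 and 0.30 (SE 0.15) for Cacna2d2, an alpha-2-delta subunit that brings channels to the surface. Adjusted p by limma was between 0.720 and 0.731 for these 3. Of 30 genes for proteins that bind or regulate the channels, 21 were above the floor, 12 lower and 9 higher, with a median of -0.043 and 2 at an unadjusted p under 0.05, where 7% of all genes were. Stac2, an adaptor of L-type channels, ran from 9.77 through 9.89 to 10.07 in controls and from 9.36 through 9.67 to 9.85 with PIO, and 6 of 8 PIO animals were below the lowest control. Its log2 difference was -0.28 (SE 0.071, limma adjusted p = 0.532). Camk2d, a calcium/calmodulin kinase subunit, differed by 0.64 (SE 0.25, limma adjusted p = 0.681), with 5 of 8 PIO animals above the highest control, and Akap5, the anchor of kinases and phosphatases at L-type channels, by 0.12 (SE 0.073).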

How the data were processed

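The deposited values are log2 expression, 1 per probe set and array (range 0.33 to 16.6, array medians 5.64 to 5.76, from which the log2 scale was read). Per the submitters' processing notes, the tools were GCRMA, MAS5 and R 2.7.1. Which of them produced these values is not stated there. They were taken as already normalized. A background model such as that of GCRMA can enlarge differences of genes just above the floor.

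Of 45101 probe sets, 64 controls were left out. Symbols came from the platform annotation, where 34945 probe sets had 1 symbol, 932 several and 9160 none. Levels of different probe sets were not set against each other. Diets were compared with lmFit and eBayes of limma 3.58.1 (R 4.3.3), diet as the only term, Benjamini-Hochberg adjusted over 12266 genes (mean above the 40th percentile, highest probe set) or, unfiltered, over 45037 probe sets, at a threshold of 0.05. The fits were tested on simulated data. The replicate is the animal. Single genes were also tested by exact permutation over 12870 splits. Correlations used 100000 shuffles within diet, two-sided. A number that opens each array's description (1 to 6 or 10 to 24) and a code that ends it (3 values) were tried as blocks without knowing what they stand for. Within both ranges of the number all controls came before all PIO animals, so that block does not separate diet from number.

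Members, lists and tests were chosen with earlier results of these data known. All members were named, with the 3 genes most like the 3 most variable members and the 3 smallest p of each of the 2 other channel lists.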

Additional observations from a re-analysis of the deposited data

How the results depend on the processing

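No member was called in any of the 35 alternatives to the gene fit or the 25 to the probe set fit, nor in the fits as reported. No gene of all those tested was called in any of the 35 either, so this is not particular to the members. In the probe set fit as reported 0% of all probe sets passed, and its alternatives were counted for members alone. The smallest adjusted p of a member in the gene fit alternatives was 0.441, for Cacna1a without control animal 2. Cacna1a and Cacna1h were lower in all 35 alternatives, at an unadjusted p under 0.05 in 26 and 21 of them. The count of all genes at that mark ran from 290 (most frequent label code alone) to 1137 (without PIO animal 10), both of 12266. With the median of probe sets Cacna1a was -0.030 (SE 0.12), and under the most frequent label code alone Cacna1h was -0.10 (SE 0.098). With 1 animal left out, Cacna1a ran from -0.18 to -0.11 (control animals 2 and 5 left out) and Cacna1h from -0.26 to -0.18. The number of lower members, 4 as reported, was 7 in arrays 1 to 6 alone and 8 with the oligodendrocyte covariate. Directions turned for differences near 0. With the median of probe sets Cacna1b was -0.0057, Cacna1c -4.4e-04, Cacna1e 0.0092 and Cacnb4 -0.060. In arrays 1 to 6 alone Cacna1c was -0.0022, Cacna1g -0.12 and Cacnb4 -0.052. With the oligodendrocyte covariate Cacna1b was -0.021, Cacna1c -0.012, Cacna1g -0.13 and Cacnb4 -0.088. With the thalamus, striatum and hippocampal neuron covariates Cacna1g was -0.021, -0.085 and -0.10 and Cacnb4 -0.016, -0.084 and -0.079. Under the most frequent label code alone they were -0.059 and -0.15, and without PIO animals 14 to 16 -0.080 and -0.072. With array number as a block Cacna1g was -0.024, and with the choroid covariate Cacna1d was 0.0021. With 1 animal left out Cacna1c ran from -0.015 to 0.065, Cacna1g from -0.049 to 0.073 and Cacnb4 from -0.040 to 0.074, with the direction turned by control animal 2 for Cacna1c, control animals 2, 3 and 8 and PIO animals 13, 14 and 15 for Cacna1g, and control animals 4 and 8 for Cacnb4. Of the correlations, 3 member pairs became 1 without PIO animals 14 to 16 and 2 with array number ranges removed (Cacna1e with Cacna1h lost, adjusted permutation p = 0.0666). The 10 pairs with marker lists became 4 and 4, and the 3 pairs of probe sets of a gene became 2 and 3 (1 of Cacna1b lost, r = 0.56, adjusted permutation p = 0.188). The causes were not tested. The hippocampal neuron covariate and the sets without animals 14 to 16 were chosen after the data were seen, as were the correlations with marker lists. No paired analysis was possible because the groups share no replicate number.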
